A study of Homo sapiens with 12 samples.

Results

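NRF2 and a core group of its antioxidant target genes were followed in TPC1 cells and in Dicer1 (+/−) clones made from them. The group holds 9 of the 58302 genes in the expression table, taken by name: NFE2L2, which encodes NRF2, and the targets GCLC, GCLM, TXNRD1, SRXN1, NQO1, AKR1C1, HMOX1 and ME1. The rule used names and no measured value, but the members were chosen with earlier results of these data known. TPC1, derived from a papillary carcinoma of the thyroid, is wild type for Dicer1. D11, WB1 and TD5 are Dicer1 (+/−) lines, each grown from 1 cell after transient transfection of TPC1 with a CRISPR/Cas9 plasmid whose guide lies in exon 11 of the gene. All 4 lines grew in RPMI with fetal bovine serum and received no further treatment. Each line gave 3 libraries of polyadenylated RNA, and the series asks what partial loss of Dicer1 does to these cells. Because each genotype change is represented by single clones, the effect of Dicer1 and other differences between clones cannot be told apart. The methods state in general that experiments were repeated independently, but neither they nor the labels tie the libraries of a line to separate cultures, so the p-values measure the spread between these libraries, which may be technical.

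NRF2 is a transcription factor that is made continuously and, in unstressed cells, is bound by KEAP1, which hands it to a CUL3 ubiquitin ligase for destruction. Oxidants and electrophiles modify KEAP1, NRF2 then accumulates, pairs with a small MAF protein and binds antioxidant response elements, while BACH1 competes for the same elements. Its targets make glutathione, run the thioredoxin system, reduce quinones, break down heme and supply NADPH, and thyroid cells face hydrogen peroxide as a normal part of hormone synthesis.

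The response element is shown here because it is the kind of sequence that NRF2 binds near its targets. The letters TGACNNNGC were searched on both strands of RefSeq promoter windows (GRCh38.p14, from 250 bases before to 50 bases after each start site). Of the 9 members, 8 had a window in that table, 10 windows in all. The element was in 4 of these 10 windows (40.0%), which belong to 3 of the 8 genes. Over all 35116 promoter windows of this length, 13.3% held it. Each sequence below is written on the strand that carries the element, with the element in capitals and up to 10 flanking bases on each side.
GCLM, chr1:93909456-93909464, opposite strand to the gene, centred 30 bases before the start: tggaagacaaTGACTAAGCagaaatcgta
ME1, chr6:83431180-83431188, same strand, centred 133 bases before the start: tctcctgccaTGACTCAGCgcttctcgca
ME1, chr6:83431032-83431040, opposite strand, centred 15 bases after the start: gctgctggggTGACGGTGCtgactgcagc
TXNRD1, chr12:104215680-104215688, same strand, centred 95 bases before the start: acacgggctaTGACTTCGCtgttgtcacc
TXNRD1, chr12:104215771-104215779, opposite strand, centred 4 bases before the start: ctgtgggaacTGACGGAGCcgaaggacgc
TXNRD1, chr12:104286930-104286938, opposite strand, centred 98 bases before another start: agagtcagaaTGACAAAGCagaaatccac
The first ME1 match also holds the letters TGANTCA, which overlap the element. The letters were not found in the windows of NFE2L2, GCLC, NQO1, SRXN1 and AKR1C1, which says nothing of elements outside these windows. A match is a run of letters and was not measured for binding.

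The deposited values are reads per gene scaled by the authors to 20000000 per library, called scaled reads here. Regular gaps between the deposited whole numbers in 11 of the 12 libraries, and in TPC1 replicate 1 (no gap) the unevenness of how often each low value occurs, put the depth at an estimated 12700000 to 21020000 reads per library, the highest being TPC1 replicate 1. A count of 3 reads corresponds to 2.85 to 4.72 scaled reads, which covers counting error only. DICER1, the targeted gene, had 1360, 1129 and 1101 scaled reads in TPC1, 977, 1051 and 1093 for D11, 881, 939 and 815 for WB1 and 643, 627 and 809 for TD5, so all 9 clone libraries lay below TPC1. The thyroid markers PAX8 (7248 to 9879) and FOXE1 (93 to 316) were present and TG was low (11 to 27), but NKX2-1 and TSHR were at 0 in all 12 libraries. Leukocyte and endothelial markers summed to 0 to 9 scaled reads per library. Genes that reached 1 per 1000000 in 3 or more libraries were tested on log2(value per 1000000 + 1) with limma over all 12 libraries, and adjusted p-values are Benjamini-Hochberg values over all 16027 tested genes. A gene was called where its adjusted p was under 0.05 and its change was at least 1.5-fold. DICER1 was at a log2 fold change of −0.19 in D11 (limma adjusted p = 0.138), which did not pass with the main settings. It was at −0.43 in WB1 (0.00404) and −0.77 in TD5 (9.02e-05). In D11 it passed with median-of-ratios scaling (−0.25, limma adjusted p = 0.0456). It also passed in D11 after correction for GC content (−0.44, 6.85e-05) or transcript length (−0.35, 0.00344). Over the alternatives the limma adjusted p in D11 ranged from 6.85e-05 to 0.471. All 9 clone libraries lay below TPC1 for 6.51% of tested genes.

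Among the members, 8 were tested and AKR1C1 was below the minimum. Against TPC1, 0 of the 8 were called in D11, 0 in WB1 and 0 in TD5, where 4.84%, 4.99% and 2.6% of all tested genes were called. On the adjusted p of limma alone, 2 members were higher and 1 lower in D11, where 33.3% of all tested genes passed (19.9% higher and 13.4% lower). In WB1 the adjusted p put 3 members higher and 0 lower, beside 30.9% of tested genes (18.6% and 12.3%). TD5 had 0 higher and 2 lower, beside 11.9% (5.32% and 6.57%). The members' median log2 fold change was 0.03 in D11, 0.07 in WB1 and −0.09 in TD5, against 0.05, 0.06 and 0.00 over all tested genes. All 3 comparisons share the TPC1 libraries. In bulk RNA, fewer cells that express a gene and less RNA per cell cannot be told apart.

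**Figure D1:**
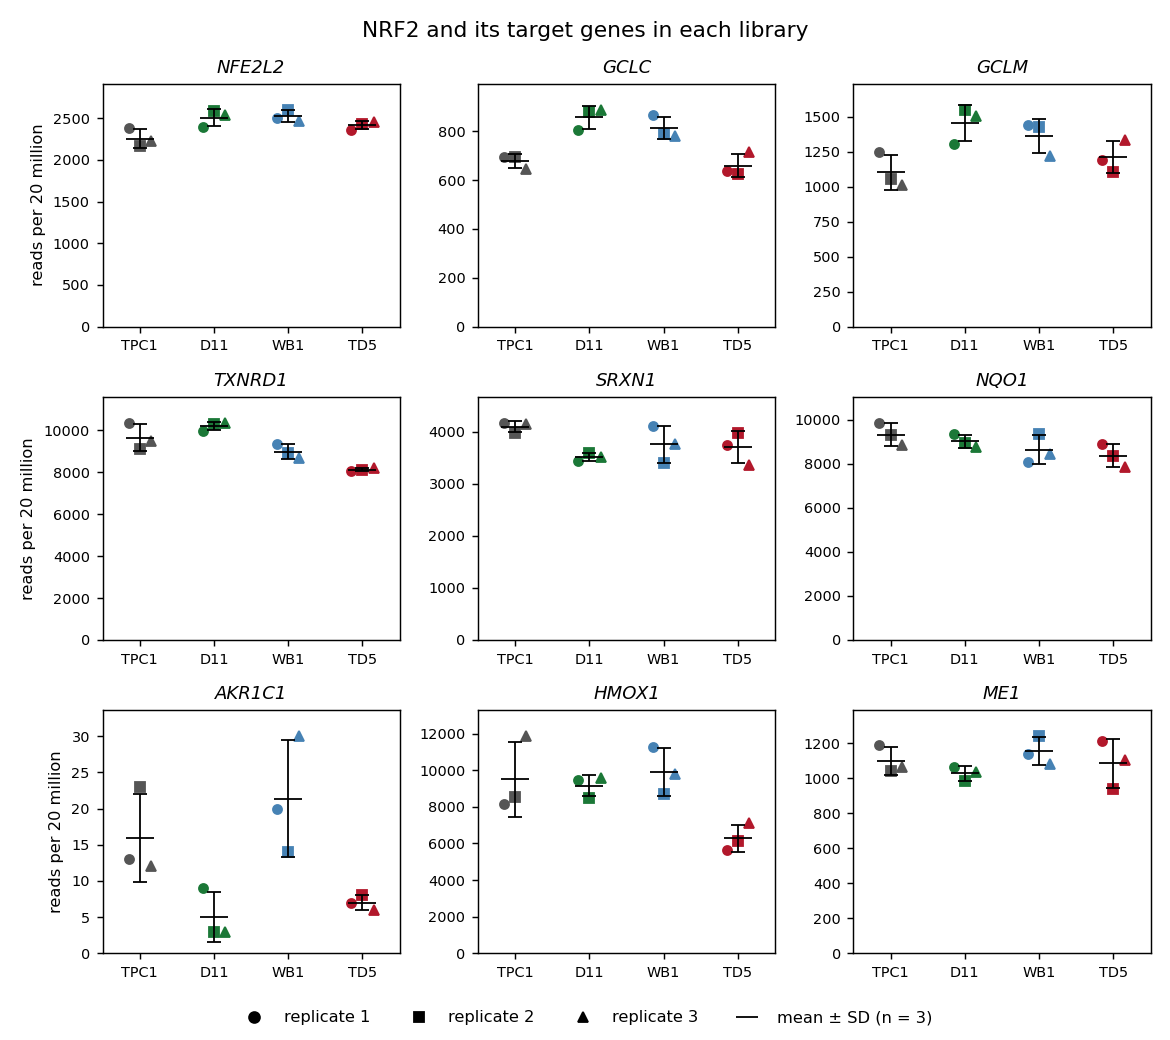
Scaled reads (reads per 20000000, y axis from 0) of the 9 members in each library, by line (x axis), with symbols for replicates 1 to 3 and black bars for the mean ± SD of 3 libraries. HMOX1 in TD5 (5637 to 7096) lies below every library of the other lines (8133 to 11860), and AKR1C1 reaches at most 30 in any library.

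**Figure D2:**
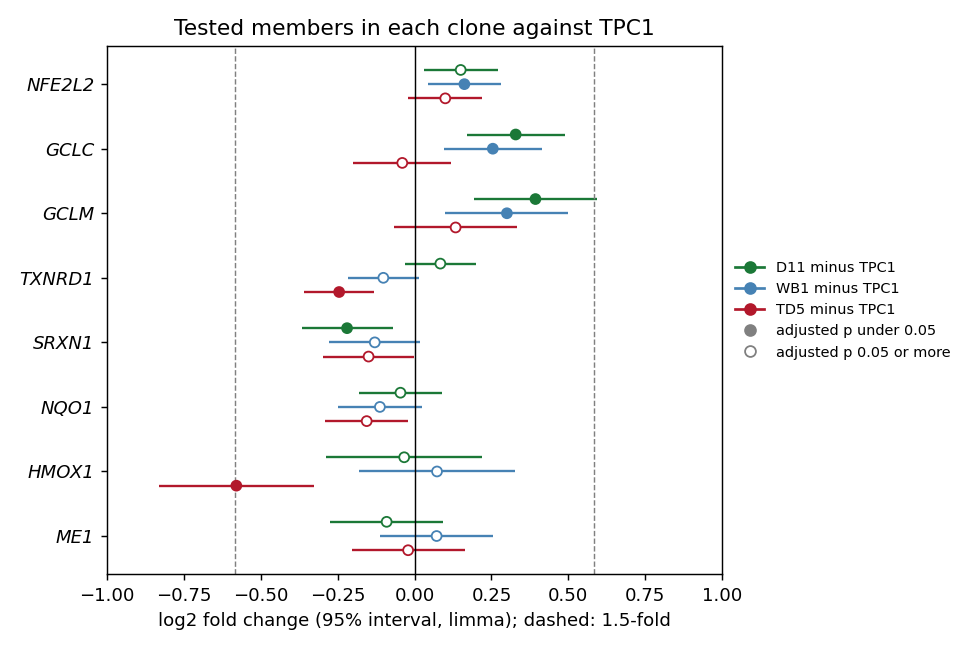
Log2 fold change of the 8 tested members (y axis) in each clone against TPC1 (x axis), with 95% intervals from limma, where filled points have an adjusted p under 0.05 and dashed lines mark 1.5-fold. GCLC and GCLM are filled above 0 in D11 and WB1, HMOX1 and TXNRD1 are filled below 0 in TD5, and every point lies inside the dashed lines.

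Levels between genes were compared per kilobase of merged exons. In TPC1, HMOX1 stood at 4122 ± 888 scaled reads per kilobase (SD, n = 3) and NQO1 at 3140 ± 172, and these 2 levels overlapped within 1 SD, unlike the other neighbours in the order. SRXN1 (1622 ± 44.5) and TXNRD1 (1438 ± 94.7) followed, with ME1 at 329 ± 23.9, GCLM at 204 ± 23.0, NFE2L2 at 151 ± 7.3 and GCLC at 78.6 ± 3.4. The catalytic GCLC therefore lay below its modifier GCLM, and AKR1C1 was at 1.8 ± 0.7. The order depends on the length used. With the length of the MANE Select transcript, an alternative chosen after seeing the data, NFE2L2 was at 922.0, above ME1 at 329.1 and GCLM at 226.1, and TXNRD1 at 2499 exceeded SRXN1 at 1622.

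NFE2L2 (ENSG00000116044, chr2:177218667-177392756 of GRCh38, minus strand) is the regulator of the group, controlled largely through the stability of its protein, which RNA does not show. It had 2378, 2166 and 2222 scaled reads in TPC1, 2390, 2589 and 2534 for D11, 2502, 2603 and 2469 for WB1 and 2365, 2433 and 2453 for TD5. Every D11 and WB1 library lay above every TPC1 library, and TD5 overlapped with TPC1. Of the 16027 tested genes, 4723 lay wholly above TPC1 in D11 and 4245 in WB1. The log2 fold change was 0.15 in D11 (limma adjusted p = 0.0512), 0.16 in WB1 (0.0395) and 0.10 in TD5 (0.276). After correction of each library for GC content the difference in WB1 was 0.01 (limma adjusted p = 0.923) and that in D11 −0.02. With median-of-ratios scaling WB1 was at 0.10 (limma adjusted p = 0.183), and with the replicate number as a block its adjusted p was 0.0615. Some reads are of uncertain origin, since NFE2L2 shares 3509 exon bases with HNRNPA3 on the opposite strand, which reached 10679 scaled reads, and the strand setting of the counting is not given in the sources used here.

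Among 11 listed partners and regulators of NRF2, 0 were called against TPC1 in any clone, where 4.84%, 4.99% and 2.6% of all tested genes were. On the adjusted p of limma alone, 2 were higher and 4 lower in D11, 1 higher and 3 lower in WB1, and 0 higher and 3 lower in TD5, beside 33.3%, 30.9% and 11.9% of tested genes in either direction. KEAP1, the adaptor that binds NRF2, had 1926, 1837 and 1898 scaled reads in TPC1, 1658, 1674 and 1482 for D11, 1716, 1550 and 1741 for WB1 and 1711, 1828 and 1673 for TD5. All 9 clone libraries lay below all 3 TPC1 libraries, which 6.51% of tested genes did. The log2 fold change was −0.23 in D11 (limma adjusted p = 0.0142), −0.18 in WB1 (0.053) and −0.12 in TD5 (0.27), and after GC correction D11 was −0.11 (0.162). WB1 passed under 8 of the alternatives, among them median-of-ratios scaling (−0.24, limma adjusted p = 0.0117) and length correction (−0.20, 0.0275), and D11 did not pass without D11 replicate 3 (−0.18, 0.089). BACH1, the repressor that competes with NRF2, had means of 392 ± 39.4 in TPC1, 487 ± 72.6 in D11, 476 ± 53.9 in WB1 and 360 ± 76.0 in TD5. The limma adjusted p of BACH1 against TPC1 was 0.095 in D11, 0.131 in WB1 and 0.58 in TD5. TD5 against D11 was at −0.42 on the log2 scale (limma adjusted p = 0.0287). MAFG, a small MAF partner, lay between 1067 and 1284 in all libraries (log2 fold changes 0.08, 0.07 and −0.06, limma adjusted p = 0.411, 0.477 and 0.651).

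Glutamate-cysteine ligase is the enzyme of the first and limiting step of glutathione synthesis. With the main settings both its subunits were past the threshold on adjusted p, higher than in TPC1, in D11 and WB1. In TD5 neither passed. GCLC (ENSG00000001084, chr6:53497341-53616970, minus strand), its catalytic subunit, had 695, 694 and 644 scaled reads in TPC1, 803, 879 and 888 for D11, 866, 790 and 782 for WB1 and 638, 626 and 714 for TD5. The D11 and WB1 libraries all lay above the TPC1 libraries, and those of TD5 overlapped with them. Such a gap was seen for 4723 of the 16027 tested genes in D11 and 4245 in WB1. The group means were 126.4% of TPC1 in D11, 119.9% in WB1 and 97.3% in TD5. The log2 fold change was 0.33 in D11 (SE 0.076, limma adjusted p = 0.00432), 0.25 in WB1 (0.0181) and −0.04 in TD5 (0.789), below 1.5-fold in each.

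GCLM (ENSG00000023909, chr1:93885199-93909456, minus strand) encodes the modifier subunit, and its promoter window holds the element TGACTAAGC shown above. It had 1246, 1053 and 1013 scaled reads in TPC1, 1306, 1551 and 1506 for D11, 1441, 1428 and 1219 for WB1 and 1190, 1109 and 1336 for TD5. D11 lay above TPC1 in every library, as for 4723 of the 16027 tested genes, and WB1 and TD5 overlapped with the highest TPC1 library. The log2 fold change was 0.39 in D11 (SE 0.095, limma adjusted p = 0.00565), 0.30 in WB1 (0.0241) and 0.13 in TD5 (0.395). Between clones, GCLM in TD5 was at −0.26 against D11 (limma adjusted p = 0.0565) and −0.17 against WB1 (0.246). The exons of GCLM are 38.6% GC, the lowest share among the members, and correction for GC content reduced the difference to 0.14 in D11 (limma adjusted p = 0.0882) and 0.09 in WB1 (0.275). GCLC, at 44.4% GC, kept 0.21 in D11 (adjusted p = 0.0241) and had 0.14 in WB1 (0.117) with the same correction. Without TPC1 replicate 3, WB1 was past the threshold on p for neither subunit (GCLC limma adjusted p = 0.078, GCLM 0.115). The same held without WB1 replicate 1 (0.0823 and 0.0945). GCLC in WB1 also missed it with median-of-ratios scaling (0.0516) and length correction (0.0813). GCLM in WB1 also missed it without the filter (0.0543), TPC1 replicate 2 (0.0788) or WB1 replicate 2 (0.0914).

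In the thioredoxin system, TXNRD1 was lower in TD5 and SRXN1 was lower in D11. TXNRD1 (ENSG00000198431, chr12:104215779-104350307, plus strand), the cytosolic thioredoxin reductase, had 10346, 9106 and 9487 scaled reads in TPC1, 9979, 10305 and 10354 for D11, 9374, 8909 and 8665 for WB1 and 8049, 8109 and 8215 for TD5. The TD5 libraries were the lowest of the 12 and spread by little (8124 ± 84.1, 84.2% of TPC1). TD5 lay wholly below TPC1 for 2338 of the 16027 tested genes. The log2 fold change in TD5 was −0.25 (SE 0.054, limma adjusted p = 0.0069), and it was 0.08 in D11 and −0.10 in WB1, with adjusted p-values over 0.05. Median-of-ratios scaling took TXNRD1 in WB1 to −0.17 (limma adjusted p = 0.027). Its 3 promoter matches to the element are shown above.

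SRXN1 (ENSG00000271303, chr20:646615-653200, minus strand), sulfiredoxin, which restores overoxidized peroxiredoxins, had 4170, 3970 and 4159 scaled reads in TPC1, 3446, 3593 and 3515 for D11, 4104, 3404 and 3762 for WB1 and 3752, 3983 and 3371 for TD5. D11 lay below TPC1 without overlap, as for 3393 of the 16027 tested genes, and the other clones overlapped with TPC1. SRXN1 was at −0.22 on the log2 scale in D11 (limma adjusted p = 0.0245), −0.13 in WB1 (0.167) and −0.15 in TD5 (0.18). Leaving out TPC1 replicate 1 or 3 or any single D11 library raised the adjusted p in D11 to between 0.0505 and 0.0763. SRXN1 shares 2292 exon bases on the same strand with AL121758.1, whose values differ from its own by at most 7 scaled reads in every library, so the reads of these genes cannot be told apart.

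NQO1 and ME1 gave no difference from TPC1 past the threshold with the main settings, and AKR1C1 was too low to be tested with them. NQO1 (ENSG00000181019, chr16:69706996-69726668, minus strand), the quinone reductase often used as a readout of NRF2, had 9858, 9291 and 8840 scaled reads in TPC1, 9353, 8964 and 8779 for D11, 8096, 9377 and 8436 for WB1 and 8893, 8378 and 7857 for TD5. All clones overlapped with TPC1. The log2 fold changes were −0.05 (95% interval −0.18 to 0.09), −0.11 (−0.25 to 0.02) and −0.16 (−0.29 to −0.02), with limma adjusted p-values of 0.602, 0.188 and 0.127. After GC correction, WB1 was at −0.22 (limma adjusted p = 0.0119). Another transcript on the opposite strand, of gene ENSG00000261602, shares 575 exon bases with NQO1 and reached 1087 scaled reads.

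ME1 (ENSG00000065833, chr6:83210402-83431051, minus strand), the cytosolic malic enzyme that makes NADPH, had 1190, 1042 and 1064 scaled reads in TPC1, 1068, 984 and 1036 for D11, 1142, 1241 and 1084 for WB1 and 1216, 940 and 1104 for TD5. Each clone overlapped with TPC1, while every D11 library lay below every WB1 library, as for 2300 of the 16027 tested genes. The log2 fold changes against TPC1 were −0.09 (95% interval −0.27 to 0.09), 0.07 (−0.11 to 0.26) and −0.02 (−0.20 to 0.16), with limma adjusted p-values of 0.433, 0.552 and 0.911. With GC correction ME1, whose exons are 39.3% GC, was at −0.33 in D11 (limma adjusted p = 0.00363). Both elements found at ME1 are shown above, one of them centred 15 bases after the start.

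AKR1C1 (ENSG00000187134, chr10:4963253-4983283, plus strand), an aldo-keto reductase of steroids and carbonyls, was close to the limit of detection. It had 13, 23 and 12 scaled reads in TPC1, 9, 3 and 3 for D11, 20, 14 and 30 for WB1 and 7, 8 and 6 for TD5. D11 and TD5 lay below every TPC1 and WB1 library, and TPC1 and WB1 overlapped. Of the 16027 tested genes, 3393 lay wholly below TPC1 in D11 and 2338 in TD5. Fitted without the filter, limma gave WB1 a log2 fold change of 0.72 over D11 (adjusted p = 0.0133). D11 was at −0.52 against TPC1 (0.0301) and TD5 at −0.60 against WB1 (0.0339). The size of these values depends on the pseudocount. On adjusted p alone, 1.82% of the 34101 genes in that fit were higher in WB1 than in D11. The shares lower were 5.37% in D11 against TPC1 and 3% in TD5 against WB1. AKR1C3, a near copy, had 705, 740 and 543 scaled reads in TPC1, 439, 464 and 471 for D11, 708, 1010 and 824 for WB1 and 566, 510 and 548 for TD5. It rose in WB1 against D11 (log2 fold change 0.85, limma adjusted p = 0.00013) and fell in TD5 against WB1 (−0.61, 0.00324). AKR1C2, the closest copy, had 0 to 5 scaled reads. How the counting treated reads that match several of these genes is not given in the sources used here.

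LUM, a matrix proteoglycan and 1 of 5 fibroblast markers listed, was high and low in the same lines as AKR1C1. The 5 markers summed to 147 to 175 scaled reads in TPC1, 69 to 99 in D11, 199 to 299 in WB1 and 48 to 63 in TD5. LUM had 63 to 78 in TPC1, 0 in D11, 138 to 212 in WB1 and 0 to 2 in TD5. The means of COL1A1 were 84.3, 77.7, 78.7 and 53.3 in TPC1, D11, WB1 and TD5, an order other than that of AKR1C1. DCN was at 0 in all 12 libraries, COL3A1 was at most 2 and PDGFRA at most 6, and the part of these markers in the AKR1C1 and AKR1C3 values was not tested.

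HMOX1 (ENSG00000100292, chr22:35380361-35394214, plus strand), heme oxygenase, which breaks heme down to biliverdin, iron and carbon monoxide, had the widest range of line means among the 8 tested members. It had 8133, 8523 and 11860 scaled reads in TPC1, 9456, 8481 and 9558 for D11, 11258, 8680 and 9799 for WB1 and 5637, 6140 and 7096 for TD5. Every TD5 library lay below every other library, and the other lines overlapped. Against TPC1 alone, 2338 of the 16027 tested genes lay wholly below in TD5. The mean in TD5 was 6291 ± 741, or 66.2% of TPC1 (9505 ± 2049, of which replicate 3 was the highest library). Against TPC1 the log2 fold change in TD5 was −0.58 (SE 0.12, limma adjusted p = 0.00446), just short of 1.5-fold, and it was −0.03 in D11 (0.851) and 0.07 in WB1 (0.669). Over the alternatives the limma adjusted p of TD5 against TPC1 ranged from 0.00218 to 0.0304. Without TPC1 replicate 3 the log2 fold change was −0.41 (limma adjusted p = 0.0252), and without TPC1 replicate 1 it was −0.68, past 1.5-fold.

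**Figure D3:**
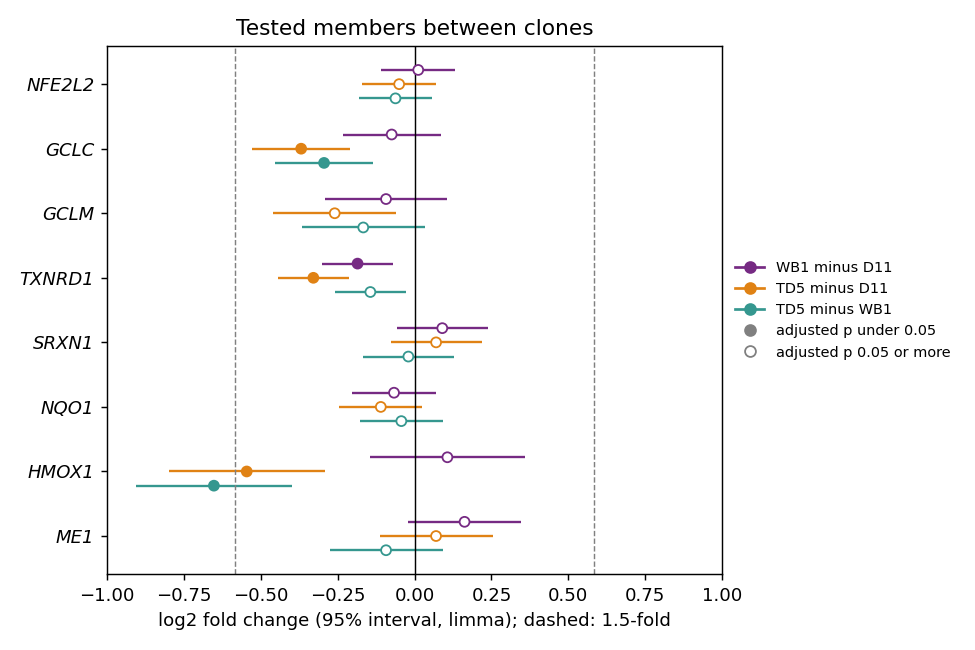
Log2 difference between clones for the 8 tested members (y axis), with 95% intervals from limma on the x axis, filled points for an adjusted p under 0.05 and dashed lines at 1.5-fold. HMOX1 in TD5 against WB1 (−0.65) is the point past the dashed line, and GCLC is filled below 0 for TD5 against both other clones.

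The clones were then compared with each other, since a difference from TPC1 in one clone and not in another does not show that the clones differ. HMOX1 fell in TD5 against WB1 (log2 fold change −0.65, limma adjusted p = 0.00228), the 1 call among 48 tests of members, in a comparison where 2.33% of tested genes were called. It lay under 1.5-fold without WB1 replicate 1 (−0.56, limma adjusted p = 0.0194) or without TD5 replicate 1 (−0.58, 0.0139). Against D11, where 3.99% of tested genes were called, HMOX1 in TD5 was at −0.55 (adjusted p = 0.00423) and 0 members were called. By adjusted p alone, 3 members were lower in TD5 than in D11, where 23.2% of tested genes passed and 14.8% were lower. Against WB1, 2 members were lower in TD5, where 13.6% passed and 9.12% were lower. GCLC in TD5 was at −0.37 against D11 (limma adjusted p = 0.00268) and −0.29 against WB1 (0.0174). The difference from WB1 missed the threshold after GC correction (−0.20, limma adjusted p = 0.053), with only these lines in the fit (0.0593), and without WB1 replicate 1 (0.0843), TD5 replicate 1 (0.0536) or TD5 replicate 2 (0.0706). TXNRD1 in TD5 was at −0.33 against D11 (limma adjusted p = 0.000505). Between WB1 and D11, where 2.85% were called, 0 members were called, and 1 passed on adjusted p beside 8.07% of tested genes, TXNRD1 at −0.19 (limma adjusted p = 0.0432, or 0.0704 with the replicate number as a block). TXNRD1 also missed the threshold there without the filter (0.103) and with length correction (0.05). It missed it without any single D11 library (0.0858 to 0.15), WB1 replicate 2 (0.115), WB1 replicate 3 (0.182) or TD5 replicate 1 (0.0536).

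With all 9 clone libraries pooled against the 3 TPC1 libraries, an exact two-sided permutation test gave p under 0.05 for 3 of 9 members, as it did for 28.6% of tested genes. NFE2L2 was 0.14 higher on the log2 scale (exact p = 0.00909), GCLM was 0.28 higher (exact p = 0.0318) and the SRXN1 difference was −0.17 (exact p = 0.0273). These p-values are unadjusted, come from 9 tests with a smallest possible p of 0.00455, and treat libraries of 1 clone as separate samples. After GC correction NFE2L2 was at 0.02 (exact p = 0.536), GCLM at 0.11 (exact p = 0.0273) and NQO1 at −0.18 (exact p = 0.00909). With median-of-ratios scaling 4 members were under 0.05, NQO1 among them (−0.15, exact p = 0.0273). With the main settings the exact p of the other 6 members, NQO1 among them, lay between 0.114 and 0.882. For 3 libraries of a clone against 3 of TPC1, an exact test cannot reach 0.05.

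The wider pathway was described with 55 further genes: regulators, glutathione, thioredoxin, quinone and carbonyl reduction, heme and iron, NADPH supply and other NRF2-linked genes, of which 50 were tested. In D11, 0 were called higher and 2 lower, in WB1 0 and 0, and in TD5 1 higher and 1 lower, beside 4.84%, 4.99% and 2.6% of all tested genes. On the adjusted p of limma alone, D11 had 7 higher and 19 lower, against 19.9% and 13.4% of all tested genes. WB1 had 9 higher and 13 lower, against 18.6% and 12.3%, and TD5 had 5 higher and 8 lower, against 5.32% and 6.57%. With median-of-ratios scaling the split was 2 higher and 21 lower in D11 and 3 higher and 20 lower in WB1, and with GC correction 4 and 19 in D11 and 3 and 15 in WB1. Over all tested genes, median-of-ratios scaling gave 14.4% higher and 18.5% lower in D11 and 13.0% and 17.8% in WB1, and GC correction 10.7% and 13.5% in D11 and 12% and 13.9% in WB1. The list's median log2 fold change was −0.09, −0.03 and −0.07 in D11, WB1 and TD5. The element occurred in 22.4% of the list's promoter windows.

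By role, the 5 NADPH genes gave 3 lower in D11, 2 lower and 1 higher in WB1 and 0 in TD5 by adjusted p, in comparisons where 33.3%, 30.9% and 11.9% of all tested genes passed and 13.4%, 12.3% and 6.57% were lower. TKT, transketolase of the pentose phosphate pathway, was at −0.28 in D11 (limma adjusted p = 0.00124), −0.24 in WB1 (0.00348) and −0.03 in TD5 (0.807). The 7 heme and iron genes gave 1 higher and 2 lower in D11, with FTL, the ferritin light chain, at −0.24 (limma adjusted p = 0.0112), 1 higher and 0 lower in WB1, and 1 higher and 0 lower in TD5. Of 5 thioredoxin genes, TXN was at 0.18 in D11 and 0.20 in WB1 (limma adjusted p = 0.0179 and 0.0137) and at −0.05 in TD5. On adjusted p these 5 genes gave 1 higher and 2 lower in D11 (TXN2 and PRDX1), 1 higher and 2 lower in WB1 (PRDX6 and TXNRD2), and 0 in either direction in TD5. A separate list of 8 antioxidant enzymes that are not classical NRF2 targets, among them superoxide dismutases, catalase and peroxiredoxins, had 0 calls in any clone and medians of −0.09, −0.05 and 0.03. At an adjusted p under 0.05 alone, limma put 2, 1 and 2 of these 8 past the threshold, beside the same 33.3%, 30.9% and 11.9% of tested genes. The choice of TKT, FTL and the thioredoxin genes as examples was made with their values in view.

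CBR1, a carbonyl reductase of quinones and prostaglandins on chromosome 21, had 624, 482 and 577 scaled reads in TPC1, 611, 522 and 538 for D11, 535, 546 and 577 for WB1 and 167, 175 and 216 for TD5. The 3 TD5 libraries lay far below the other 9, at 33.2% of the TPC1 mean. CBR1 fell in TD5 (log2 fold change −1.50, limma adjusted p = 9.2e-08), and was at −0.01 in D11 and −0.01 in WB1. Its window holds the element at chr21:36069865-36069873, on the opposite strand and centred 155 bases before the start, shown because CBR1 in TD5 was farthest from 0 among the 50 tested genes of the list:
CBR1: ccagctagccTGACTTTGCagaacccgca
The neighbouring CBR3, named after its values were seen, had 209, 174 and 174 scaled reads in TPC1 and 282, 246 and 247 in TD5 (log2 fold change 0.44, limma adjusted p = 0.00922).

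**Figure D4:**
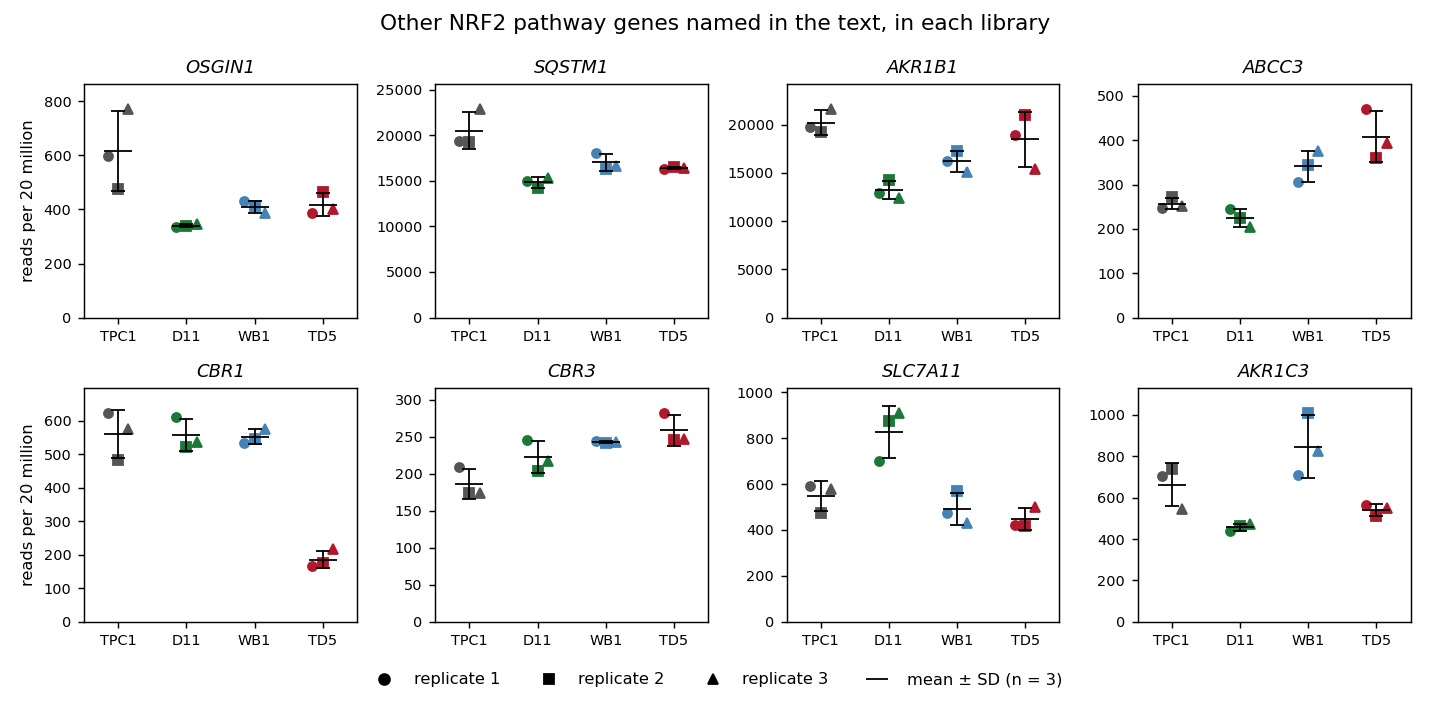
Scaled reads (reads per 20000000, y axis from 0) of 8 further NRF2 pathway genes in each library, by line (x axis), with symbols for replicates 1 to 3 and black bars for the mean ± SD of 3 libraries. CBR1 in TD5 (167 to 216) lies below the other libraries (482 to 624), and SLC7A11 in D11 (699 to 910) lies above them (419 to 591).

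OSGIN1, an oxidative stress growth inhibitor, had 598, 477 and 773 scaled reads in TPC1, 335, 339 and 347 for D11, 432, 412 and 386 for WB1 and 386, 465 and 402 for TD5. All 9 clone libraries lay below TPC1, as for 6.51% of tested genes. OSGIN1 fell in D11 (log2 fold change −0.79, limma adjusted p = 0.00031), and was at −0.54 in WB1 (0.0045) and −0.52 in TD5 (0.0124), under 1.5-fold. Without TPC1 replicate 3, TD5 was at −0.34 (adjusted p = 0.0699).

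AKR1B1, aldose reductase, had 19728, 19242 and 21643 scaled reads in TPC1 and 12898, 14303 and 12439 in D11. It fell in D11 (log2 fold change −0.61, limma adjusted p = 0.00016), to −0.55 and under 1.5-fold after GC correction, and was at −0.32 in WB1 (0.014) and −0.14 in TD5 (0.34). ABCC3, an exporter of conjugates, had 248, 272 and 251 scaled reads in TPC1 and 471, 359 and 393 in TD5. It rose in TD5 (log2 fold change 0.62, limma adjusted p = 0.00127), was at 0.38 in WB1 (0.0146) and at −0.18 in D11 (0.202).

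SLC7A11 and the genes after it in this section were picked with their values in view. SLC7A11, the cystine carrier that feeds glutathione synthesis, had 591, 475 and 578 scaled reads in TPC1, 699, 875 and 910 for D11, 474, 568 and 431 for WB1 and 423, 419 and 501 for TD5. D11 lay above all other libraries. Against TPC1 alone, 4723 of the 16027 tested genes lay wholly above in D11. SLC7A11 in D11 was at 0.58 against TPC1 (limma adjusted p = 0.00216), just short of 1.5-fold, and at 0.26 after GC correction (0.0204). With that correction SLC7A11 was lower than in TPC1 in WB1 (−0.40, limma adjusted p = 0.00091) and TD5 (−0.32, 0.00703). Neither passed with the main settings. SLC7A11 fell in WB1 against D11 (−0.73, limma adjusted p = 0.000587) and in TD5 against D11 (−0.85, 0.000109).

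SQSTM1, which encodes p62, a protein that binds KEAP1, had 19364, 19250 and 22900 scaled reads in TPC1, 14980, 14181 and 15340 for D11, 18072, 16304 and 16671 for WB1 and 16261, 16484 and 16401 for TD5. All 9 clone libraries lay below TPC1, as for 6.51% of tested genes. The log2 fold changes were −0.46, −0.27 and −0.32 (limma adjusted p = 9.94e-05, 0.00596 and 0.00379). SQSTM1 shares 1582 exon bases on the opposite strand with MRNIP, which reached 12108 scaled reads. TRIM16L was at −0.49, −0.47 and −0.45 (limma adjusted p = 0.000794, 0.00105 and 0.00304). GSTP1, a glutathione transferase, was at −0.37, −0.48 and −0.23 (0.00101, 0.000114 and 0.0402), and TFRC, the transferrin receptor, at 0.27, 0.24 and 0.22 (0.00826, 0.0151 and 0.0485).

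Among the tested genes whose pattern over the 12 libraries was most like that of HMOX1 were SLC16A6 (Pearson r = 0.927) and MAX (0.923). The means of SLC16A6 in TPC1, D11, WB1 and TD5 were 96.3, 98.3, 110.7 and 40.0. For AKR1C1 they were PSMB8 (0.926), MATN2 (0.912) and GLT8D2 (0.894), the last with means of 151.0, 72.7, 170.0 and 71.3. These correlations are descriptions over 12 libraries from 4 lines, picked from all tested genes, and the points share their line and library depth.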

How the data were processed

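The 12 RNA-seq libraries, 3 of wild-type TPC1 and 3 of each Dicer1 (+/−) line, were grouped by sample title and genotype label. The authors prepared stranded mRNA libraries, mapped paired-end reads to GRCh38 with STAR 2.5.3a, obtained counts per gene with HTSeq 0.9.1 and scaled each library to 20000000 reads. What was deposited is therefore a score, not raw counts: they are whole numbers that sum to 20009833 to 20014191 in each library. The edgeR method the authors name needs counts and was not used. Values per 1000000 plus a pseudocount of 1 were fitted on the log2 scale by limma 3.58.1 in R 4.3.3 (limma-trend, lines as groups). Genes reaching 1 per 1000000 in 3 or more libraries were kept. Single values were tested by exact permutation over libraries with numpy 2.4.6 in Python 3.11.15.

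The members and lists were chosen with earlier results of these data known. Named genes were the members, DICER1, listed genes called in a clone against TPC1, KEAP1, BACH1, MAFG, AKR1C2, AKR1C3, and for the members with the widest range of line means the 3 genes most correlated. Other genes are marked as chosen after their values were seen. The alternatives covered filter, pseudocount, fold, scaling, GC content and length of merged exons (99.1% of tested genes), voom on estimated reads, the lines in the fit, a replicate block and leaving out each library. Same-numbered libraries of D11 and TD5 deviated together (correlations of 0.11, 0.17 and 0.35). The main fit treated them as unpaired, the replicate block was an alternative, and no source states a pairing. The other pairs of lines did not all exceed 0.1. Some genes that these rules name are not reported here.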

Additional observations from a re-analysis of the deposited data

Results flagged for a closer look

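Differences between clones in the change from TPC1 were tested directly by limma with Benjamini-Hochberg adjustment (log2 scale). Listed here are members past an adjusted p of 0.05, and genes of the wider list that were also at least 1.5-fold apart. On adjusted p alone the wider list gave 3 higher and 3 lower in WB1 against D11. It gave 9 and 7 in TD5 against D11, and 4 and 6 in TD5 against WB1. Of all tested genes, 8.07%, 23.2% and 13.6% passed in these comparisons. Of TD5 against WB1, HMOX1 differed by −0.65, CBR1 by −1.48, AKR1C3 by −0.61 and GCLC by −0.29. Of TD5 against D11, CBR1 differed by −1.49, SLC7A11 by −0.85, HMOX1 by −0.55, GCLC by −0.37, TXNRD1 by −0.33 and ABCC3 by 0.80. Of WB1 against D11, AKR1C3 differed by 0.85, SLC7A11 by −0.73 and TXNRD1 by −0.19. What the clones differ in besides Dicer1 was not tested.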

How the results depend on the processing

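Under the alternatives, the 48 comparisons of members gave 1056 values, of which 44 lost the threshold on p, 18 gained it and 0 reversed past it. Without a minimum fold change the members called were 3 in D11, 3 in WB1, 2 in TD5, 1 in WB1 against D11, 3 in TD5 against D11 and 2 in TD5 against WB1, and the wider list had 26, 22 and 13 in D11, WB1 and TD5. At 2-fold, TD5 against WB1 had 0 members, and the wider list 0 in D11 and 1 in TD5. Median-of-ratios scaling gave 1 member in TD5 (HMOX1) and 1 wider gene in WB1; GC correction gave 1 member in TD5 against D11; a pseudocount of 4 gave 1 wider gene in TD5. Without the filter AKR1C1 entered, giving 1 member in WB1 against D11 and 2 in TD5 against WB1. On adjusted p alone, wider genes higher in D11 were 3 without the filter, 2 with median-of-ratios scaling, 4 with GC and 3 with length correction; in WB1 they were 3, 3 and 5 under the last 3 settings, with 20 lower under median-of-ratios scaling; in TD5 5 were lower with only 2 lines fitted. Leaving out single libraries gave 0 to 1 members in TD5 against TPC1 (1 without TPC1 replicate 1 or 2 or TD5 replicate 3), 0 to 1 against D11 (1 without D11 replicate 2 or TD5 replicate 3) and 0 to 1 against WB1 (0 without WB1 replicate 1 or TD5 replicate 1). Wider genes called ranged from 1 to 3 in D11, 0 to 1 in WB1 and 1 to 3 in TD5; those past the p threshold ranged from 2 to 8 higher and 14 to 19 lower in D11, 3 to 11 and 13 to 16 in WB1, and 3 to 5 and 4 to 9 in TD5. Members with an exact p under 0.05 ranged from 1 (without TPC1 replicate 3) to 3. The cause of these shifts was not tested.

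With the replicate block, 2 of 48 member comparisons lost the threshold and 0 gained it: NFE2L2 in WB1 (adjusted p = 0.0615) and TXNRD1 in WB1 against D11 (0.0704). For TD5 against D11, which the main fit treated as unpaired, the block changed 0 member calls, with HMOX1 at −0.55.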
